A study of Mus musculus with 8 samples.

Results

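The 9 genes of the chemokine system listed here were measured in mouse embryonic forelimb cells: the CC ligands Ccl2 and Ccl7, the CXC ligands Cxcl1, Cxcl2 and Cxcl5, the homeostatic ligands Cxcl12 and Cxcl14, and the receptors Ackr3 and Cxcr4. They are 9 of the 28001 genes in the files, and they were chosen by symbol after their UMIs in all 8 libraries, by stage, segment and cell type, were known, so the levels and differences given here are descriptions. Raw UMIs, that is counted transcript molecules, were summed over cells with at least 3000 UMIs and at most 10% mitochondrial UMIs, which kept 53085 cells in the 8 libraries, and a level is given as UMIs per 1000000 UMIs of those cells (CPM).

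All embryos were C57BL/6J and carried Hic1 CreERT2 and the Rosa26 LSL tdTomato reporter, with both alleles homozygous in the labels of the sorted libraries, and dams had been given 7.5 mg of tamoxifen at embryonic day (E) 10. Cre activity driven from Hic1, a gene of mesenchymal progenitors, therefore marked the descendants of cells that expressed it around that day. The 6 sorted libraries held tdTomato-positive, blood- and endothelium-depleted cells of 5 stages, namely E11.5, E12.5, E13.5 and E14.5 and then E16.5, which was split into a proximal segment around the elbow and a distal segment holding distal zeugopod and autopod. The other 2 libraries held lineage-depleted cells of whole E11.5 limbs, labelled as positive and negative for tdTomato. Each library came from pooled forelimbs. The paper describes small groups of epithelial cells in its E16.5 data as contamination and removed them, whereas epithelial-like cells were kept here unless stated. Libraries from E11.5 to E13.5 were made with an earlier kit chemistry than those from E14.5 on, the dissociation enzymes changed at E13.5, and no autopod is in the proximal segment, so stage, kit, digestion and segment cannot be told apart along the course. Kept cells numbered 3165 to 11109 a library with a median of 6788 to 18473 UMIs. No library pair shared more than 48 barcodes. With 1 library a group in the sorted course, intervals below are exact Poisson 95% intervals, which cover counting error only, and there is no test of stage or segment.

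Chemokines are small secreted proteins that bind G protein-coupled receptors and steer cell migration. Ccl2 and Ccl7 draw monocytes through the receptor Ccr2, while Cxcl1, Cxcl2 and Cxcl5 draw neutrophils through Cxcr2, and all of these are induced in stromal cells by inflammatory signals through NF-kB. Cxcl12 signals through Cxcr4 and is known for guiding haematopoietic cells, endothelium and migrating muscle progenitors into the limb, and Ackr3 is a scavenging receptor that removes Cxcl12 without G protein signalling. Cxcl14 is a constitutive chemokine of skin and other epithelia whose receptor use is less settled.

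The inflammatory CXC genes lie close together on chromosome 5 of the mm10 genome (GRCm38): Cxcl5 at chr5:90759360-90761624, Cxcl1 at chr5:90891241-90893115 and Cxcl2 at chr5:90903871-90905938, all on the plus strand. Ccl2 and Ccl7 are neighbours on chromosome 11, at chr11:82035571-82037453 and chr11:82045712-82047525. Ccl2 overlaps Gm17268 on the opposite strand. Of the words of 50 bases in Cxcl2 transcripts, 5.84% also occur in Cxcl3, its close paralog. RefSeq promoter windows of 300 bases (250 before and 50 after the start, build GRCm38.p6) were matched for 6 of the 9 genes: Cxcl1, Cxcl2, Cxcl12, Cxcl14, Ackr3 and Cxcr4. They were searched on both strands for GGGANNNNCC, a form of the NF-kB consensus, because Cxcl1 and Cxcl2 moved together in the E16.5 segments. The motif was found in the Cxcl1 and Cxcl2 windows and in none of the other 4, and 22.9% of 27025 genes with a window hold it, so a match is a description and no evidence of binding. The windows of Cxcl1 (chr5:90890995-90891294, plus strand) and Cxcl2 (chr5:90903649-90903948, plus strand) are shown 5′ to 3′ because they hold the same run of 11 motif bases, with every matched base in capitals:
Cxcl1: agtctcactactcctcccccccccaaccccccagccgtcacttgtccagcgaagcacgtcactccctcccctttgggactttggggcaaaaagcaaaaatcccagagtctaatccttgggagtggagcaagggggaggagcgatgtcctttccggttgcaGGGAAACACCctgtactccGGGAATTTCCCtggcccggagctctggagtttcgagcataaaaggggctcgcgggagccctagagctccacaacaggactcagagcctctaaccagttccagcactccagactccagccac
Cxcl2: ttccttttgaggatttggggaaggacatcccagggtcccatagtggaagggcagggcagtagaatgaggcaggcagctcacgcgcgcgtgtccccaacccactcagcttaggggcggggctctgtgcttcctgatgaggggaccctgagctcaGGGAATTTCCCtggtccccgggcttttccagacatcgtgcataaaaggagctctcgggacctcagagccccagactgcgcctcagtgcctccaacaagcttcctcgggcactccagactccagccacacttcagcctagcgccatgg
The run of 11 bases, GGGAATTTCCC, matches the motif once on each strand, in 2 positions that overlap and start 1 base apart. Its matches begin 71 and 70 bases before the start in Cxcl1 and 97 and 96 bases before it in Cxcl2, and Cxcl1 holds one more match 90 bases before the start.

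The 5 inflammatory ligands were scarce in the sorted cells until E14.5 and reached their highest levels in the E16.5 distal library. From the earliest sorted library to the E16.5 proximal and then the distal one, Ccl2 was at 0.286, 1.99, 1.48, 2.51, 16.6 and 67.2 CPM. Ccl7 was at 0, 0.475, 0.242, 1.00, 2.47 and 20.2 CPM in the same libraries. Cxcl1 was at 2.83, 2.92, 1.78, 3.32, 18.6 and 85.2 CPM. In these genes the 4 earlier libraries stayed low and the E16.5 distal library stood above every other library with intervals that did not overlap. Cxcl2 was at 0.698, 0.543, 0.330, 0.366, 2.76 and 20.1 CPM. Cxcl5, which rests on only 1 UMI at E13.5, was at 0.381, 0.249, 0.0220, 2.11, 1.27 and 10.7 CPM. Cxcl5 was the one ligand of this group whose level at E16.5 proximal did not exceed that at E14.5. In the whole E11.5 libraries the 5 ligands stayed at or below 1.03 CPM, with Ccl2 and Ccl7 at 0 to 4 UMIs a library.

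Cxcl12, Cxcl14 and Ackr3 had other courses. Cxcl12 was at 90.3, 133, 127, 193, 176 and 141 CPM in the sorted libraries in the same order. Cxcl14 was at 218, 204, 190, 285, 122 and 161 CPM. Ackr3 was at 3.90, 18.7, 21.1, 48.3, 20.7 and 24.9 CPM. On this scale each had its highest level at E14.5, with an interval clear of every other library. For Cxcl12 that order did not hold under other settings. E16.5 proximal was the higher of the last 2 time points when epithelial-like cells were left out (206 against 195 CPM, ratio 1.06, 1.04 to 1.07) and with TMM scaling, which corrects library totals for composition (ratio 1.09, 1.07 to 1.11), against a ratio of 0.913 (0.899 to 0.927) over all kept cells, and the interval held 1 with cells thinned to 3000 UMIs (0.971, 0.936 to 1.01). Cxcr4, the signalling receptor for Cxcl12, was at 0.540, 0.113, 0.264, 1.54, 4.15 and 2.20 CPM, with only 5 to 17 UMIs in each of the 3 earliest libraries.

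**Figure D1:**
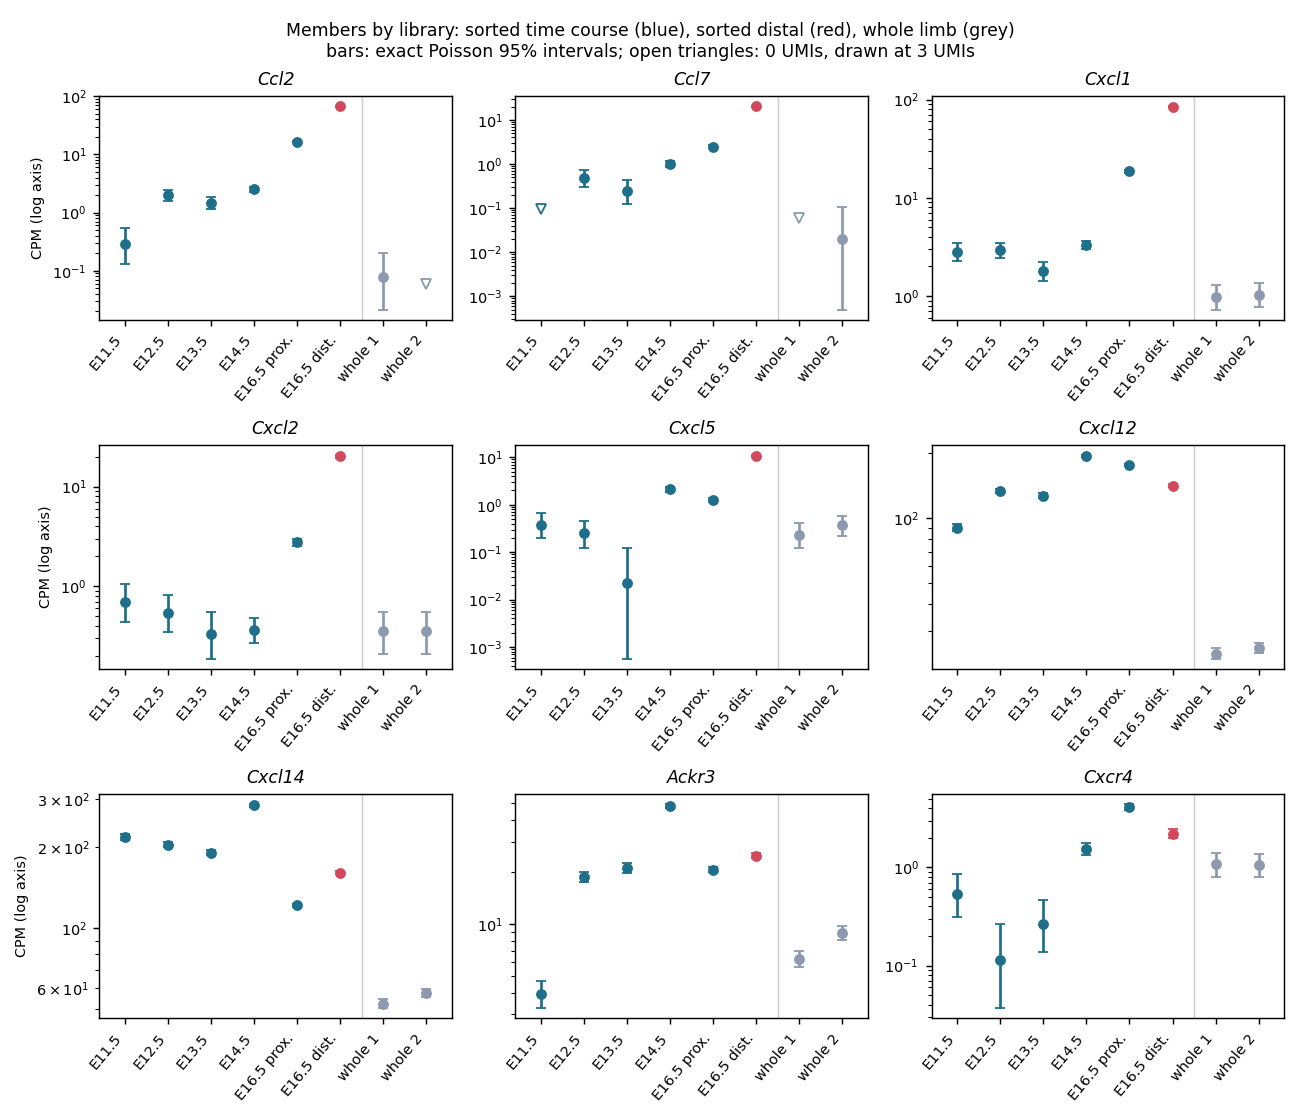
Level of each of the 9 genes (CPM, log axis) in the 8 libraries, with exact Poisson 95% intervals as bars. Open triangles mark 0 UMIs and are drawn at the level of 3 UMIs. The inflammatory ligands Ccl2, Ccl7, Cxcl1, Cxcl2 and Cxcl5 are highest in the E16.5 distal library (red), while Cxcl12, Cxcl14 and Ackr3 are highest at E14.5 over all kept cells, an order that turned for Cxcl12 against E16.5 proximal with epithelial-like cells left out and with TMM scaling.

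A step between 2 successive libraries was called where the ratio of CPM passed 2 and the gene had at least 20 UMIs in both together. From E11.5 to E12.5, 3 of 9 genes rose, where 6.72% of 14647 genes did: Ccl2 by 6.97-fold (3.51 to 15.7), Ackr3 by 4.78-fold (3.95 to 5.82), and Ccl7 by at least 4.99-fold, taking 3 UMIs as the floor for its 0 UMIs before. The Ccl2 rise was from 9 UMIs in 2 cells to 88 UMIs in 31 cells, with 28 of the 88 in a single cell. Its interval takes UMIs as independent and does not cover such clumping. Cxcr4 fell, from 17 UMIs to 5 (ratio 0.210, 0.0604 to 0.592), where 3.43% of genes did. From E12.5 to E13.5 none of the 7 genes with enough UMIs passed the ratio, against 8.20% of genes rising and 2.89% falling.

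From E13.5 to E14.5, where the kit also changed, 4 of 9 genes rose against 9.52% of all genes tested, and none fell against 10.0%. Ccl7 rose 4.13-fold (2.23 to 8.46), Ackr3 2.28-fold (2.13 to 2.45) and Cxcr4 5.81-fold (3.26 to 11.4). Cxcl5 went from 1 UMI to 283, a ratio of 95.9 whose interval spans 17.1 to 3799. With TMM scaling Cxcl1 passed the ratio as well (2.12, against 1.86). From E14.5 to E16.5 proximal, 5 of 9 rose against 12.1% of genes: Ccl2 by 6.61-fold (5.91 to 7.41), Cxcl2 by 7.56-fold (5.65 to 10.3), Cxcl1 by 5.61-fold (5.08 to 6.19), Cxcr4 by 2.70-fold (2.32 to 3.15) and Ccl7 by 2.47-fold (2.05 to 3.01). Cxcl14 (ratio 0.426) and Ackr3 (ratio 0.428) fell, against 13.3% of genes, and with TMM scaling their ratios were 0.508 and 0.511, short of the call. The median of all genes moved by -0.20 on the log2 scale over this step and by -0.15 over the step before it. Without the pericyte-like cluster described below, E16.5 proximal levels were 4.90 CPM for Ccl2 and 1.63 CPM for Ccl7. Against 2.51 and 1.00 CPM over all E14.5 cells, both fall short of the ratio of 2. Cxcl1, Cxcl2 and Cxcr4 were then at 12.3, 2.28 and 3.81 CPM, against 3.32, 0.366 and 1.54 CPM at E14.5. The Cxcl2 ratio was 3.81 when epithelial-like cells were left out. Of its 649 UMIs in the proximal library, 233 were in a single cell of the suprabasal Calm4- and Krt1-led epithelial-like cluster, which as a whole held 57.3% of them. Over the whole course from E11.5 to E16.5 proximal, 7 of 9 genes rose against 23.5% of genes, Cxcl12 (1.95-fold) and Cxcl14 (ratio 0.557) being short of the ratio, and none fell against 26.4%. Cxcl12 passed 2 with TMM scaling (2.63-fold), with epithelial-like cells left out (2.28-fold) and with cells thinned (2.17-fold), and Cxcl2 was short of it under the latter pair of settings (1.65-fold and 1.85-fold).

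Between the E16.5 segments, the same 5 inflammatory ligands were higher in the distal library, 5 of 9 genes against 10.7% of 18198 genes. Ccl7 was 8.18-fold higher distally (7.48 to 8.95), Cxcl5 8.42-fold (7.44 to 9.56), Cxcl2 7.29-fold (6.70 to 7.94), Cxcl1 4.57-fold (4.42 to 4.73) and Ccl2 4.05-fold (3.91 to 4.20). With epithelial-like cells left out the Cxcl2 ratio grew to 17.7, and the other inflammatory ligands had smaller ratios that still passed 2. These were 7.04 for Ccl7, 7.29 for Cxcl5, 4.05 for Cxcl1 and 3.50 for Ccl2. The other 4 genes did not pass the ratio over all kept cells. Cxcl14 was 1.32-fold and Ackr3 1.21-fold higher distally, while Cxcl12 was lower at a ratio of 0.7995. Without epithelial-like cells these ratios were 1.40, 1.08 and 0.695. None of the 9 was lower past the ratio, against 9.59% of genes, but Cxcr4 at 0.531 (0.469 to 0.601) passed it with epithelial-like cells left out (0.456) and with TMM scaling (0.477). The median of all genes was 0.13 higher distally on the log2 scale. The distal library was also counted with another Cell Ranger version (6.0.1 against 3.0.2 in the headers), and segment and library cannot be told apart.

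The inflammatory ligands were concentrated in few cells. The 1% of cells with most UMIs of Ccl2 held 85.5% of its UMIs in the proximal library and 64.5% in the distal one, whereas that share for Cxcl12 was 10.7% and 10.3%. For Cxcl1 it was 60.07% and 54.998%. At an equal depth of 3000 UMIs a cell, Ccl2 was detected in 1.41% of proximal and 4.58% of distal cells, against 4.52% and 11.03% before thinning. Cxcl1 was detected in 2.87% and 7.62% of cells at that depth, against 9.18% and 19.6% before it.

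When both segments were clustered together without the chemokine genes, the 5 ligands had their highest level in the same cluster in each segment, 412 proximal and 198 distal cells in which 9 of 10 pericyte markers were raised, led by Rgs5, Acta2 and Myh11. Clusters come from these same cells, so their levels are given with no test. In these pericyte-like cells Ccl2 was at 297 CPM (286 to 308) proximally and 809 CPM (784 to 834) distally. Cxcl1 was at 169 (161 to 178) and 1251 CPM (1220 to 1283). Cxcl2 was at 14.2 and 303 CPM, Ccl7 at 22.6 and 148, and Cxcl5 at 12.2 and 107. Both segments therefore ranked this cluster first, although the proximal Cxcl2 level overlapped that of the Calm4-led epithelial-like cells at 13.4 CPM (12.1 to 14.8).

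Relative to all other kept cells of the library, the pericyte-like level of Ccl2 was 60.6-fold higher proximally and 18.5-fold higher distally. Cxcl1 was 13.7-fold and 25.9-fold higher, and Cxcl2 was 6.24-fold and 27.1-fold higher. The cluster made up 3.71% of proximal and 2.34% of distal cells, and it held 71.7% of proximal and 36.9% of distal Ccl2 UMIs. In the clustering of the time course, a smaller pericyte-like cluster of 172 E16.5 proximal cells, whose leading genes also hold the endothelial genes Cdh5 and Emcn, ranked first too for Ccl2 (588 CPM), Cxcl1 (231 CPM), Ccl7 (28.4 CPM) and Cxcl2 (28.2 CPM). Cxcl5 was an exception there, at 1.76 CPM in that cluster and 3.03 CPM in the Ly6a- and Pi16-led fibroblast-like cells, so its proximal place depends on where the cluster is drawn. Only 32 pericyte-like cells were found at E14.5.

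Next to the pericyte-like cells stood a cluster of 445 proximal and 638 distal cells led by Dpep1, Adh7 and C2, with 3 of 10 dermal fibroblast markers raised. Its distal cells held Ccl2 at 228 CPM, Cxcl1 at 192, Ccl7 at 98.8, Cxcl2 at 77.9 and Cxcl5 at 50.7, the second level for each of the 5. Its proximal cells held Ccl2 at 21.7 CPM, Cxcl1 at 9.62, Ccl7 at 5.82, Cxcl2 at 2.11 and Cxcl5 at 1.06. The distal level was thus 10.53-fold (9.13 to 12.2) the proximal one for Ccl2, 19.9-fold for Cxcl1 and 48.0-fold (25.9 to 101) for Cxcl5. In the Col7a1-led dermal fibroblast-like cells Ccl2 was at 4.57 CPM proximally and 94.3 CPM distally. In the tenocyte-like cells Ccl2 was at 0.613 CPM proximally and 5.45 CPM distally.

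**Figure D2:**
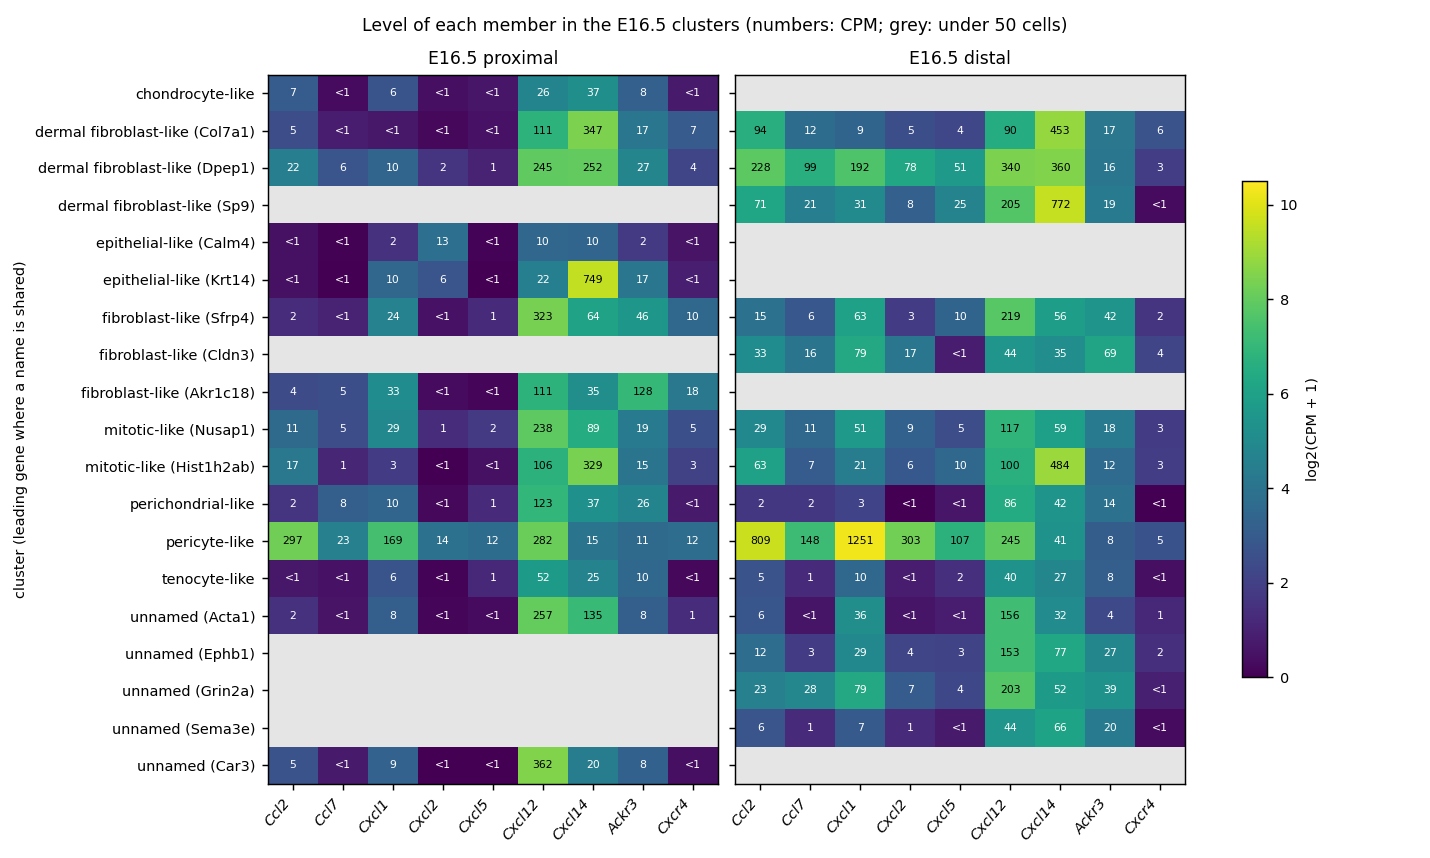
Level of each gene in the clusters of the E16.5 proximal (left) and distal (right) libraries, as log2(CPM + 1) by colour with the CPM printed, for clusters of at least 50 cells in that library (grey rows hold fewer). The pericyte-like row is highest for Ccl2, Ccl7, Cxcl1, Cxcl2 and Cxcl5 in both segments, with the Dpep1-led row second in the distal library, while Cxcl12 is spread over most mesenchymal rows.

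Within clusters the distal excess of the inflammatory ligands was common. Of 9 clusters with at least 50 cells in both segments, Ccl2 was higher distally in 9, and Ccl7, Cxcl1, Cxcl2 and Cxcl5 were higher in 8 each. The intervals of the ratio lay above 1 in 8 clusters for Ccl2, 7 for Ccl7, 8 for Cxcl1, 7 for Cxcl2 and 6 for Cxcl5. The cluster that went the other way was the perichondrial-like one, with Alpl and Omd among its leading genes, at a ratio of 0.272 for Ccl7 and 0.348 for Cxcl1. Cxcl2 (1 UMI) and Cxcl5 (9 UMIs) were too few there to give a direction. Without the pericyte-like cluster the ratio over the remaining cells was 8.94 for Ccl2, 9.92 for Ccl7, 3.92 for Cxcl1, 4.90 for Cxcl2 and 9.42 for Cxcl5. Without the Dpep1-led cluster as well, the ratios were 6.79, 6.38, 2.91, 2.43 and 5.03, so all 5 passed the ratio of 2 in the cells outside both.

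**Figure D3:**
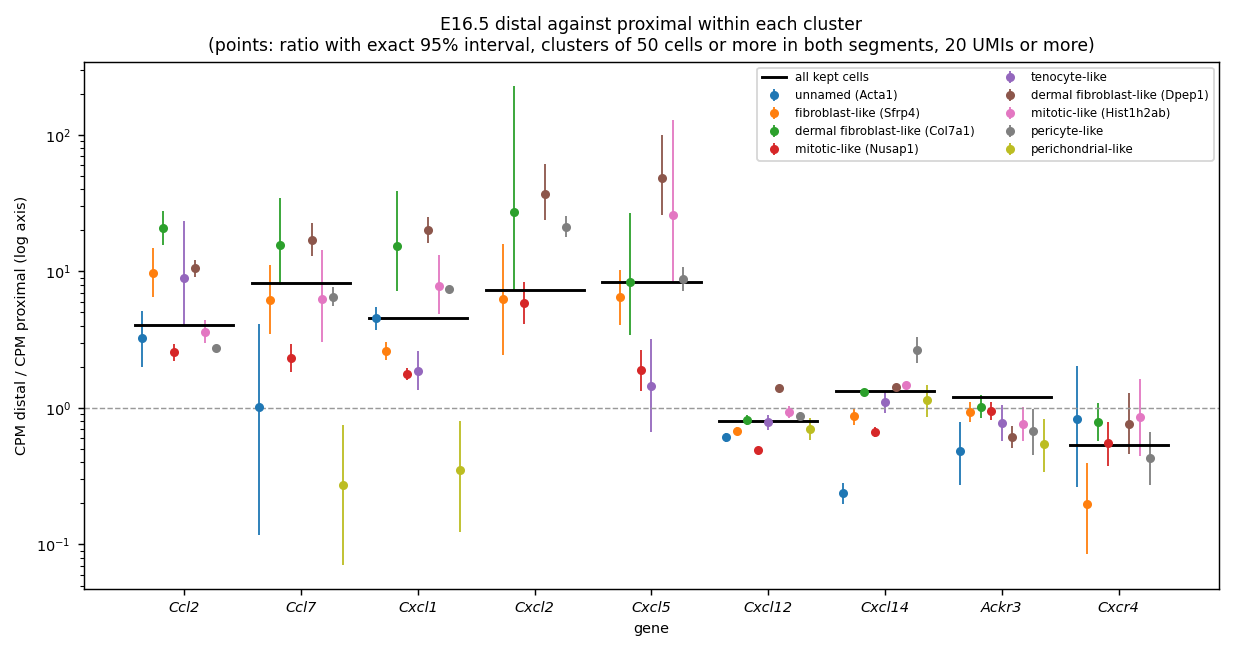
Ratio of the distal to the proximal CPM (log axis) for each gene within 9 clusters of at least 50 cells in both segments, with exact 95% intervals. Pairs under 20 UMIs or with 0 UMIs on one side are not drawn, and the black lines give the ratio over all kept cells. Ccl2, Ccl7, Cxcl1, Cxcl2 and Cxcl5 lie above 1 in most clusters and Cxcl12 below 1 in all drawn clusters but the Dpep1-led one.

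The inflammatory ligands were also detected together. Among distal pericyte-like cells thinned to 3000 UMIs, Cxcl1 was found in 73.3% of cells with Ccl2 (61.9 to 82.9) and in 39.8% of cells without it (31.1 to 49.1). Cxcl2 was found in 27.9% of the cells with Cxcl1 and in 0 of 94 cells without it (up to 3.85%). Among distal cells of the Dpep1-led cluster, Ccl7 was found in 32.9% of cells with Ccl2 and in 5.79% of cells without. Outside both clusters Cxcl1 was in 21.6% of distal cells with Ccl2 and in 4.90% of those without. These shares pool cells of 1 library, so they describe that library.

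Since macrophages and endothelium also make these chemokines, the markers of other cell types were measured in the same cells. In the pericyte-like cluster the 9 immune markers summed to 4.15 CPM proximally and 4.72 distally, with C1qa, C1qb, Tyrobp and Adgre1 at 0 in both and Ptprc at 0 distally. The 9 endothelial markers, all detected, summed to 186 CPM proximally and 68.3 distally, above the library values of 39.1 and 34.7, and the 9 erythroid markers summed to 1235 and 17.8 CPM. In the pericyte-like cells without a single immune or endothelial UMI, 141 proximal and 95 distal, Ccl2 was at 302 and 739 CPM and Cxcl1 at 182 and 1033 CPM, against 297 and 809 CPM and 169 and 1251 CPM in the whole cluster. Those cells were not chosen for erythroid UMIs, and the part of erythroid RNA in the ligands' levels was not tested. As a background for free RNA, suprabasal epithelial-like cells of the proximal library, with a median of 46206 UMIs, had Ccl2 in 0 of 608 cells at 3000 UMIs (up to 0.605%), against 18.4% of pericyte-like cells with a median of 21046 UMIs. Thinning takes a larger part of any free RNA from the deeper cells, so these shares do not bear it equally. No such share was read in the distal library. The part of free RNA in its low levels outside the pericyte-like cluster was not tested.

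A list of 10 NF-kB response genes and a list of 15 immediate early genes, which dissociation of tissue can also induce, were read beside these ligands. Of the 10 NF-kB response genes, all but Ptgs2 (ratio 1.01, 0.939 to 1.09) were higher distally beyond counting error over all kept cells. Past a ratio of 2 were 5, against 10.7% of all genes. They were Tnfaip3 (6.52-fold) and Nfkbiz (3.88-fold), which restrain or tune the pathway, the cytokine Il6 (3.55-fold), the apoptosis inhibitor Birc3 (2.39-fold) and the subunit Nfkb1 (2.25-fold). The median of the list was 1.06 on the log2 scale, against 0.13 for all genes and 2.02 for the 9 chemokine genes. The immediate early genes were mixed over all kept cells, 9 of 15 above a ratio of 1, with a list median of 0.54 on the log2 scale. Of these, Egr1 (3.15-fold), Fos (2.31-fold) and Nr4a1 (2.04-fold) passed 2, 3 of 15 against 10.7% of all genes, and the heat shock gene Hspa1b was lower past the ratio (0.402), 1 of 15 against 9.59%. The ratio was below 1 also for Hspa1a (0.659), Jun (0.821), Atf3 (0.891), Ier2 (0.919) and Dusp1 (0.942). Within clusters, 6 of the 10 NF-kB response genes, Nfkbiz and Tnfaip3 among them, and 5 of the 15 immediate early genes, Egr1 among them, were higher distally in 9 of 9. Ptgs2 was higher distally in 7 of the 9 (median ratio 2.10, with 6 beyond counting error and 0 the other way). Of the 6 immediate early genes below 1 over all kept cells, Ier2 was higher distally in only 1 and Dusp1 in only 2 of the 9, and they were lower beyond counting error in 5 and 6. The other 4 were higher distally in most clusters, Hspa1b in 7 (median ratio 1.504, with 5 beyond counting error and 0 the other way) and Hspa1a, Jun and Atf3 in 6 each (median ratios 1.07, 1.11 and 1.10). In the Dpep1-led cluster Tnfaip3 went from 0.634 CPM proximally to 37.3 CPM distally. Whether these lists and the ligands share a source, in tissue or in handling, was not tested.

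**Figure D4:**
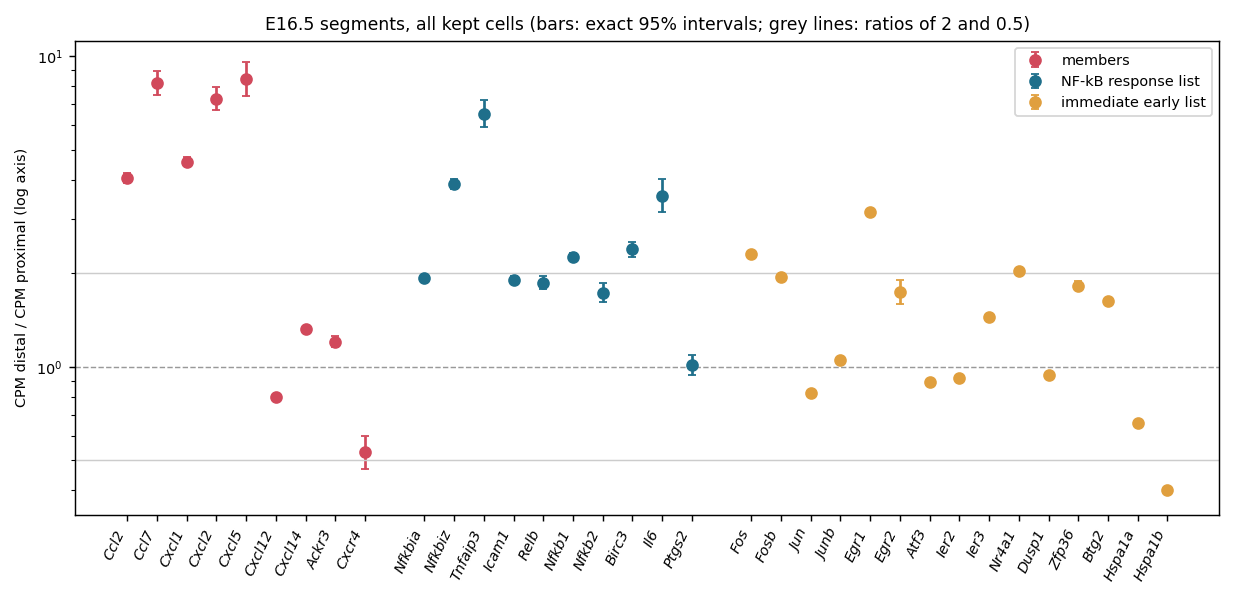
Ratio of distal to proximal CPM (log axis) over all kept E16.5 cells, with exact 95% intervals, for the 9 chemokine genes (red), 10 NF-kB response genes (blue) and 15 immediate early genes (yellow). Of the genes, 5 red, 5 blue and 3 yellow genes lie above the grey line at 2, and Hspa1b lies below the line at 0.5.

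Cxcl12, the ligand of Cxcr4 and Ackr3, was broadly expressed in the mesenchyme and low in cartilage and epithelium. In the proximal library it was highest at 362 CPM (340 to 384) in 117 cells led by Car3, Agt and Wfdc18, followed by the Sfrp4-led fibroblast-like cells at 323 CPM and the pericyte-like cells at 282 CPM. The chondrocyte-like cells held 25.9 CPM, and the 2 epithelial-like clusters held 10.2 and 21.9 CPM. In the distal library the Dpep1-led cells were highest at 340 CPM (330 to 351), clear of the pericyte-like cells at 245 CPM. Distal levels were lower than proximal ones in 8 of 9 clusters, down to a ratio of 0.491 (0.465 to 0.518) in the Nusap1-led mitotic-like cells, and only the Dpep1-led cluster was higher, at 1.39 (1.32 to 1.46). Earlier in the course, Cxcl12 peaked at 477 CPM in the E12.5 cells led by Gstp1 and at 381 CPM in the Pappa-, Nefm- and Dkk2-led cells of E14.5, each clear of the next cluster.

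Cxcl14 was high in basal epithelial-like and dermal fibroblast-like cells. Its highest proximal level was in the basal epithelial-like cells led by Krt14 and Krt5, at 749 CPM (730 to 768), where 74.6% of cells held it at 3000 UMIs. The paper treats such cells in the sort as contamination, so that level is not taken as one of the Hic1 lineage. Suprabasal Calm4-led cells held 9.88 CPM. Among mesenchymal clusters the Col7a1-led dermal fibroblast-like cells held 347 CPM proximally and 453 CPM distally, and the Sp9-led dermal fibroblast-like cells, found only in the distal library, held 772 CPM (746 to 799). At E14.5 the Calb1- and Rspo1-led dermal fibroblast-like cells were highest, at 602 CPM (591 to 613). Pericyte-like cells had little Cxcl14, 15.3 CPM proximally and 40.8 distally.

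Of the receptors, Ackr3 was highest in fibroblast-like cells. In the proximal library the Akr1c18-, Ly6a- and Wnt2-led cells held 128 CPM (120 to 135), well clear of the Sfrp4-led cells at 45.6 CPM, and in the distal library the Cldn3- and Pi16-led cells held 68.7 CPM (63.8 to 73.8). Though Ackr3 was 1.21-fold higher distally over all cells, it was higher distally in only 1 of the 9 shared clusters, with ratios from 0.482 to 1.02 and a median of 0.766. At E14.5 it was highest in the Calb1-led dermal fibroblast-like cells (75.1 CPM) and the Msx1-led cells (68.3 CPM), whose intervals overlapped.

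Cxcr4 was sparse in the sorted lineage. Its highest proximal levels were 17.6 CPM (14.9 to 20.6) in the Akr1c18-led fibroblast-like cells, 12.3 CPM in the pericyte-like cells and 10.4 CPM in the Sfrp4-led cells. The Sfrp4-led cells had less distally, at 2.06 CPM (ratio 0.198, 0.0848 to 0.396), and so did the pericyte-like cells, at 5.33 CPM. The endothelial markers of the pericyte-like cells were lower distally too (68.3 against 186 CPM), and in those without an immune or endothelial UMI Cxcr4 was at 8.36 CPM (5.30 to 12.5) proximally and 5.60 CPM (2.90 to 9.79) distally, with overlapping intervals. Cells with Cxcr4 more often held Ackr3 in the proximal library, 18.0% (11.9 to 25.6) against 5.12% (4.72 to 5.55), and in the distal library the shares were 3.33% of 60 cells and 7.37% with overlapping intervals. These shares pool all clusters, and both receptors were highest in the same proximal cluster, the Akr1c18-led cells. No share within that cluster was read, so joint detection beyond the shared cluster was not tested. Ackr3 was in 4.92% of proximal cells with Cxcl12 and in 5.44% of those without, and Cxcr4 was in 1.03% and 1.27%, with overlapping intervals for each receptor.

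Sorted and whole-limb cells could be compared at E11.5 with a test, 1 sorted against 2 whole libraries, which leaves 1 residual degree of freedom. UMIs of 3159 sorted and of 5115 and 5344 whole-limb mesenchymal cells were summed, and edgeR's quasi-likelihood test with Benjamini-Hochberg adjustment over 15150 genes called 53.0% of them. Within that background 6 of the 7 members tested were called, and Ccl2 and Ccl7 were too low to be tested. Cxcl12 was at 90.7 CPM in sorted cells against 25.3 and 26.6 CPM in the whole pair, a log2 difference of 1.63 ± 0.11 (SE, adjusted p = 4.04e-51). Cxcl14 was at 219 CPM against 53.4 and 56.7 CPM (1.82 ± 0.09, adjusted p = 3.64e-84). Both ligands were thus higher in the sorted library by more than the spread of the whole pair. In the fit with no filter on low counts both calls held at much higher adjusted p, with log2 differences of 1.61 and 1.80. The paper finds labelled cells of this stage mostly in the proximal limb, and the whole libraries came from whole limbs. The sort and limb position therefore cannot be told apart in this comparison. Cxcl1 was at 2.81 CPM against 0.959 and 0.824 CPM (1.48 ± 0.28, adjusted p = 9.55e-07).

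Ackr3 went the other way, at 3.86 CPM against 5.22 and 7.84 CPM in the whole pair (log2 difference -0.94 ± 0.19, adjusted p = 2.74e-06). The Ackr3 call was lost in the edgeR fit with no filter on low counts, where the difference was of like size (-0.95 ± 0.34, adjusted p = 0.126), and it held in the other 5 fits, DESeq2 giving the highest adjusted p of these (0.0217). Without whole replicate 2 the difference was -0.44, with no test. The calls of Cxcl2 (adjusted p = 0.0425) and Cxcr4 (adjusted p = 0.0414) rested on 22 and 16 sorted UMIs and were lost with DESeq2 (adjusted p = 0.430 and 0.431), with limma-voom (0.0862 and 0.0774) and with no filter on low counts (0.113 and 0.0992). The Cxcl2 call was also lost with edgeR when doublets were left out (adjusted p = 0.0997) and when all kept cells were summed (0.160). Cxcl5 was at 0.383, 0.256 and 0.402 CPM and was not called (adjusted p = 0.959). By direction, 5 were higher in the sorted library against 26.8% of genes and 1 lower against 26.3%. The sort and the single sorted library cannot be told apart in this comparison, for which the study's methods give the same earlier kit at E11.5. No source says that the whole replicates came from separate animals. The 1 residual degree of freedom is the spread between the 2 whole libraries, and the fit shares spread over all genes. The p-values therefore cover no variation among sorted libraries. The genes were listed with these libraries in view, so the calls are no independent evidence.

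The Cxcl12 of the sorted E11.5 cells was uneven. A cluster of 285 sorted cells led by Rasgrp2 and Rarres2 held 330 CPM (312 to 349) and 42.9% of the library's Cxcl12 UMIs, while the 2 large sorted clusters held 64.4 CPM (1647 cells led by Ntrk2) and 52.6 CPM (1130 cells led by Hist1h2ap). Only 17 cells of each whole library fell in the Rasgrp2-led cluster, at 72.1 and 66.7 CPM. Cxcl14 varied less, at 193 CPM in the Rasgrp2-led, 219 CPM in the Ntrk2-led and 238 CPM in the Hist1h2ap-led sorted cells.

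In the whole limb the levels of Cxcl12, Cxcl14, Ackr3 and Cxcr4 differed between clusters in both libraries. Cxcl12 was at 60.0 and 62.2 CPM in the Sema3d- and Matn4-led cells, 71.1 and 50.9 CPM in the Pax1-led cells and 52.3 and 50.7 CPM in the Irx5- and Irx3-led cells. It was at 4.59 and 4.51 CPM in the Tfap2b-, Evx2- and Lmo2-led cells and at 4.87 and 7.65 CPM in the Gata6-led cells. The Irx5-led cells also had the highest mesenchymal Cxcl14, 197 and 172 CPM, but the 16 and 21 epithelial-like cells held 1280 (1092 to 1491) and 1518 CPM (1338 to 1715). Most Cxcr4 of these blood- and endothelium-depleted libraries was in the myogenic-like cells, 314 and 293 cells, at 11.44 and 12.95 CPM. They held 83.6% and 85.2% of its 55 and 54 UMIs, so the label of a mesenchymal gene does not hold for most of its whole-limb UMIs. In the sorted E11.5 library 16 of its 17 UMIs were in mesenchymal cells, at 0.510 CPM. These myogenic-like cells also held Ackr3 at 17.91 and 19.995 CPM, though the Pax1-led cells were higher, at 28.5 and 33.7 CPM, and had little Cxcl12 (5.47 and 6.76 CPM). When all kept cells entered the test, Cxcr4 was lower in the sorted library (log2 difference -1.14, adjusted p = 0.0149).

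**Figure D5:**
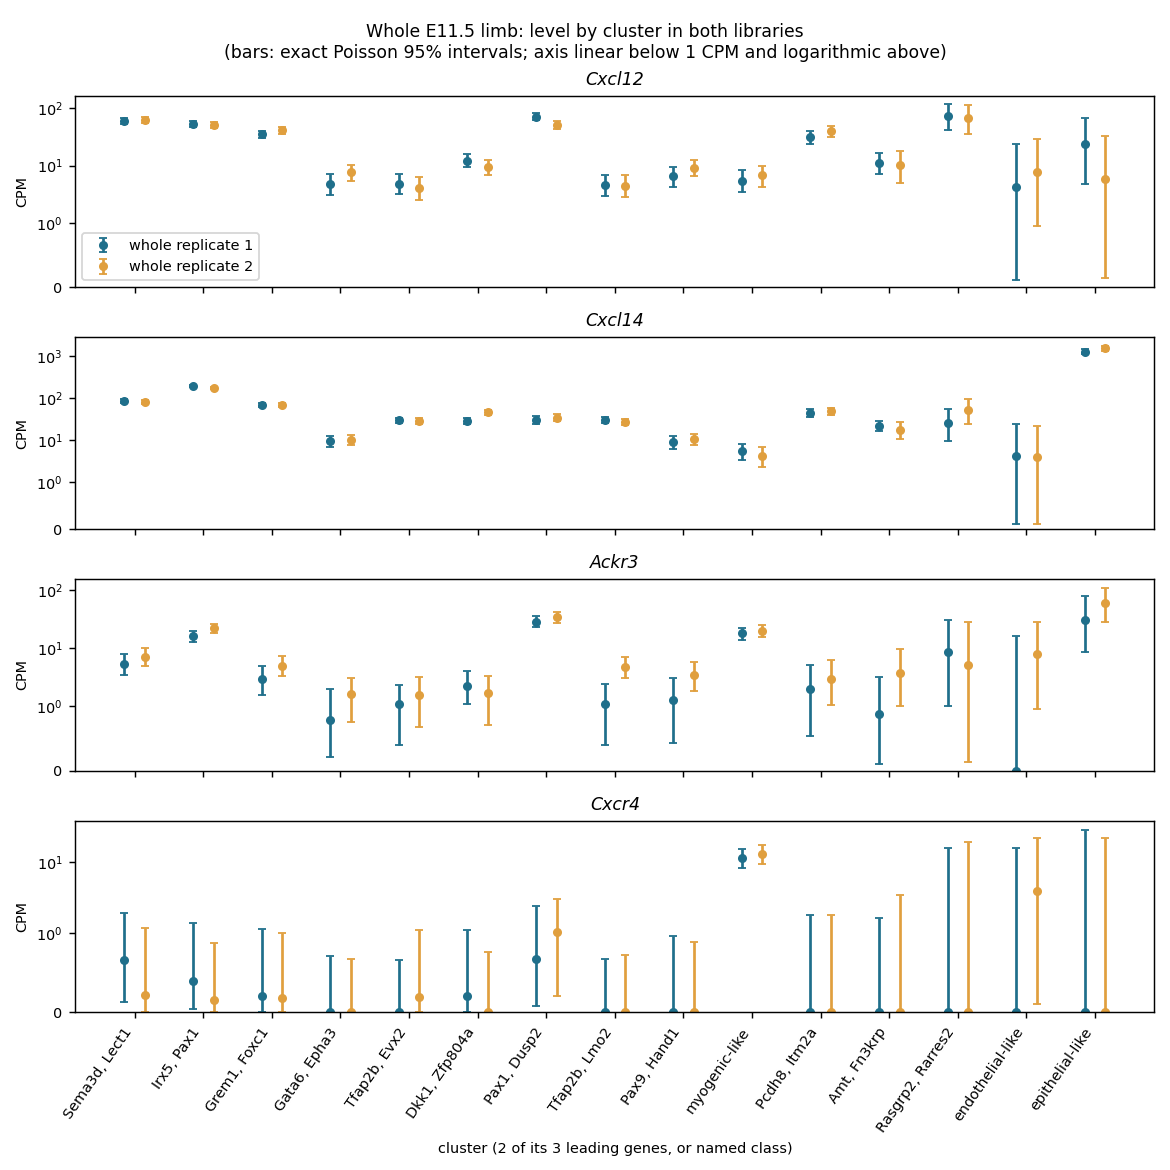
Level of Cxcl12, Cxcl14, Ackr3 and Cxcr4 (CPM, linear below 1 and logarithmic above) in each cluster of the 2 whole E11.5 libraries with exact Poisson 95% intervals. Cxcr4 stands out in the myogenic-like cells (11.44 and 12.95 CPM), and Cxcl14 in the epithelial-like cells (1280 and 1518 CPM).

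Most of the remaining chemokine system was scarce. Of 30 other ligands in the files 18 were below 1 CPM in every library, as were 20 of 22 other receptors, and no receptor reached 20 CPM. Ccl11, Cxcl10, Cxcl16 and Ppbp had their highest level between 5 and 20 CPM, above the highest level of the member Cxcr4 (4.15 CPM). Between the E16.5 segments, 3 of 19 other ligands tested were higher distally past the ratio of 2, against 10.7% of genes. Lower past it were 4, against 9.59%, and the median of the 19 was -0.18 on the log2 scale. Ccr2, the receptor of Ccl2 and Ccl7, had 0 to 5 UMIs a library, and Cxcr2, the receptor of Cxcl1, Cxcl2 and Cxcl5, was at 0.0390 to 0.567 CPM. Blood cells, which include the monocytes and neutrophils that these ligands draw, had been depleted before capture. The low levels of both receptors therefore do not describe such cells in the limb. In all, 3 other ligands reached 20 CPM in a library. Ccl25, a thymic and gut ligand, was at 20.04 to 29.01 CPM in all 8 libraries, but it overlaps Elavl1 on the opposite strand. Ccl27a, a skin ligand, was at 8.93 to 28.3 CPM in the sorted libraries and overlaps Il11ra1 in the same way. Pf4, a platelet chemokine, was at 44.8 and 52.4 CPM in the whole libraries, 6.57 CPM in sorted E11.5 and at most 0.440 CPM in the later sorted libraries. In the E11.5 test 6 of the 7 other ligands tested were called, 1 higher and 5 lower in the sorted library, Pf4 among the latter at -3.18 ± 0.15 on the log2 scale (adjusted p = 4.79e-102), and 2 of 4 other receptors were called, both counts to be read against the 53.0% of all genes called.

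For each member, the genes with the most similar level over 28 E16.5 cluster-by-segment units of at least 50 cells were listed by Pearson's r of log2(CPM + 1). The 5267 genes compared were those at 50 CPM or more in at least 1 unit, so a single high unit let a gene in. Units of one library share their depth and free RNA, so r is a description. Ccl2 was nearest Ccl7 (r = 0.871), Cxcl5 (0.842) and Ifitm1 (0.780). Cxcl1 was nearest the cytokine Il6 (0.855), Rap2a (0.833) and Nfkb1 (0.824), and Cxcl2 nearest Nfkb1 (0.805), Cxcl5 (0.775) and Ccl7 (0.775). The inflammatory ligands were listed together with these levels known, so their nearness to one another repeats that choice and is no support for a group. Cxcl12 was nearest Pros1, Vstm4 and Rarres2 (0.863, 0.830 and 0.828), and Cxcl14 nearest Sorl1, Tnfrsf19 and the dermal collagen gene Col7a1 (0.914, 0.855 and 0.832). Ackr3 was nearest Stmn4 (0.770), Wls and Tmem158, and Cxcr4 nearest the receptor gene Flt1 (0.808), Nnmt and Cdc42ep2.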

How the data were processed

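Single-cell libraries were made by the authors with 10x 3′ kits, and reads were aligned to a modified mm10 genome with Cell Ranger (3.0.2 in the file headers of 5 sorted libraries, 6.0.1 for E16.5 distal, none given for the whole libraries, while the study's reporting summary names another version). The deposited files hold raw UMI counts per gene and barcode. Cells with at least 3000 UMIs and at most 10% mitochondrial UMIs were kept. Counts were summed by library or cluster and given as CPM. Clusters came from Leiden clustering (scanpy 1.11.5, resolution 1) of the time course, the segments and the E11.5 libraries, without the chemokine genes. Names rest on marker lists and end in -like, and the naming rule was settled after the clusters were seen. The authors' cell annotation was not used here. Doublets were scored with scrublet (2.53 to 8.88% of cells marked) and left in, and were left out as an alternative. Intervals are exact Poisson or Clopper-Pearson at 95%, and ratio intervals are exact. The E11.5 test used edgeR 4.0.16 (TMM, filterByExpr, quasi-likelihood), with DESeq2 and limma-voom as alternatives. It was also run on simulated counts, whose spread was estimated from these data. The genes named are the members, other chemokine genes at 20 CPM or more in a library, other ligands that peaked between 5 and 20 CPM, and the 3 genes nearest each member. The members and lists were chosen with earlier results of these data known. Promoter windows came from RefSeq.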

Additional observations from a re-analysis of the deposited data

Results flagged for a closer look

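Within the 9 clusters shared by the E16.5 segments, the ratio of distal to proximal CPM pointed both ways, beyond counting error, for 4 genes, and the difference between clusters was not tested. For Ccl7 it was 17.0 in the Dpep1-led cells and 0.272 in the perichondrial-like cells. For Cxcl1 it was 19.9 in the Dpep1-led cells and 0.348 in the perichondrial-like cells. For Cxcl12 it was 1.39 in the Dpep1-led cells and 0.491 in the Nusap1-led mitotic-like cells. For Cxcl14 it was 2.67 in the pericyte-like cells (Rgs5, Acta2 and Myh11) and 0.237 in the cells led by Acta1, Tnnc2 and Actc1. Those leading genes are muscle fibre transcripts and do not name the cells, and the paper finds no myogenic contribution of the labelled lineage.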

How the results depend on the processing

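The counts of genes past a ratio of 2 changed under some settings. With cells thinned to 3000 UMIs, 0 genes fell from E11.5 to E12.5, in place of Cxcr4, and 2 rose in place of 3, since Cxcr4 and Ccl7 had too few UMIs left. With no minimum of UMIs a gene, 1 gene was higher and 1 lower from E12.5 to E13.5, in place of 0. With TMM scaling, 5 rose from E13.5 to E14.5 in place of 4, with Cxcl1 added, 8 rose from E11.5 to E16.5 proximal in place of 7, with Cxcl12 added, 0 fell from E14.5 to E16.5 proximal, and 1 gene, Cxcr4, was lower distally, as it was (1) with epithelial-like cells left out. Leaving out the pericyte-like cluster, alone or with the Dpep1-led one, alternatives chosen after seeing the data, kept the count of 5 higher distally. In the E11.5 test, DESeq2 called 4838 genes and a fit with no filter on low counts called 4655, in place of 8032, and that fit called 3 members, without Ackr3, Cxcl2 and Cxcr4. Reversals were the Cxcr4 difference with all kept cells (-1.14), the Cxcl5 difference, which ranged from -0.069 without whole replicate 1 to 0.58 without whole replicate 2, and the pericyte-to-other Cxcr4 log2 ratio in the thinned distal library (-0.71). Of the ratios between libraries, 1 crossed 1 beyond counting error, Cxcl12 from E14.5 to E16.5 proximal, which went from 0.913 to 1.09 with TMM scaling and to 1.06 without epithelial-like cells. The causes were not tested. Of 477 single-gene values under an alternative, 373 stayed within the interval or on the side of the threshold of the reported value, 92 moved outside its interval, 9 lost their call and 3 reversed. No paired analysis was possible because the groups compared share fewer than 2 replicate numbers. Depth limits Ccl2, Ccl7, Cxcl2, Cxcl5 and Cxcr4 before E14.5, where 0 to 88 UMIs stand behind a value.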
